A study of Mus musculus with 8 samples.

Results

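The m6A readers and erasers are 10 genes whose proteins bind or remove N6-methyladenosine (m6A), the methyl mark that the METTL3 complex writes on adenosines of messenger RNA. They were taken by gene name from the 54532 genes counted: 8 readers (*Ythdf1*, *Ythdf2*, *Ythdf3*, *Ythdc1*, *Ythdc2*, *Igf2bp1*, *Igf2bp2* and *Igf2bp3*) and 2 erasers (*Fto* and *Alkbh5*). All 10 passed the filter on low counts and are among the 17998 genes tested. Whole-retina RNA was sequenced in 4 *Mettl3*-CKO samples (Six3-Cre+; Mettl3 floxed/floxed) and 4 Control samples, labelled as postnatal day 7, whereas the methods name day 6. The Control label gives no allele or Cre status. Six3-Cre acts in retinal progenitors and the knockout was described for the central retina, so that a whole-retina sample can also hold cells that kept *Mettl3*. Nothing in the labels states whether a sample is 1 animal or a pool, and p-values measure the spread between these samples. The comparison asks how RNA of the proteins that read or remove the mark stood when the writer was removed.

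m6A is read and erased by a few protein families. The YTH-domain proteins hold the methylated base directly. YTHDF1, YTHDF2 and YTHDF3 are cytoplasmic and are known for promoting decay and, in some settings, translation of marked mRNA, while YTHDC1 is nuclear and acts in splicing and export and YTHDC2 is an RNA helicase best known from germ cells. The IGF2BP proteins are RNA-binding proteins that stabilize their targets and are abundant in embryonic tissue and progenitors, and FTO and ALKBH5 are demethylases of the AlkB family.

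Each sample held 16227095 to 20281517 counts in all, at which 3 counts equal 0.148 to 0.185 CPM, a count expressed relative to its library. CPM values below are after edgeR's TMM scaling unless a level per gene length (FPKM) is named. *Mettl3* itself was at 21.1, 29.6, 21.3 and 24.3 CPM in *Mettl3*-CKO samples 1 to 4 and at 33.8, 32.5, 29.4 and 29.3 CPM in Controls 1 to 4 (log2 fold change -0.38, adjusted p = 0.0602, edgeR's quasi-likelihood test), and its range overlaps *Tox4* on the other strand by 1561 bases. *Mettl3*-CKO 2 overlapped the Controls. The counts of *Tox4* came to 330% of those of *Mettl3*, with a *Tox4* log2 fold change of 0.08. Whether counting used strand was not stated, so reads in the shared bases cannot be assigned with certainty. Rod markers, which define much of the retina, summed to between 2167 and 5368 CPM in the 8 samples. Control 4 stood apart in lens crystallins and other lens markers, whose sum was 2670 CPM against 6.09 to 59.0 CPM in the other samples.

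Among the 3 members called below, *Ythdf2* carried the letters GGACT near its stop codon, a core of the sequence in which m6A is known to be placed. The search covered the transcript strand only, within 200 bases on either side of the stop codon, in 1 GENCODE vM21 transcript per gene. *Ythdf2* had 2 matches, and 9.81% of 14267 coding transcripts of tested genes had at least as many. The matches lie 78 and 159 bases past the stop codon, in the 3′ untranslated region, at chr4:132186834-132186854 and chr4:132186753-132186773 of GRCm38, minus strand. They are shown with 8 bases on each side and with GGACT in capitals:
*Ythdf2*, 78 bases past the stop: gaaaattaGGACTttttttct
*Ythdf2*, 159 bases past the stop: aagacataGGACTtaactgga

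Of the 10 members, 3 had a match in this window (*Ythdf2*, *Fto* with 1 and *Alkbh5* with 1), against 39.4% of all the transcripts searched. *Ythdf1* and *Igf2bp1* had 0 in the window and 1 and 10 in the whole transcript. A match is a description of the letters and no measurement of m6A was used here.

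The upstream sequences of *Ythdf1* and *Ythdf2* are shown because these paralogs were both higher in *Mettl3*-CKO retinas. Each is the stretch from 250 to 51 bases before the RefSeq start (GRCm38.p6), read 5′ to 3′ on the gene's own strand, from chr2:180920987-180921186 (minus) and chr4:132212307-132212506 (minus). Capitals mark GGGCGG (the GC box), CCAAT and CACGTG (an E-box) on either strand:
*Ythdf1*: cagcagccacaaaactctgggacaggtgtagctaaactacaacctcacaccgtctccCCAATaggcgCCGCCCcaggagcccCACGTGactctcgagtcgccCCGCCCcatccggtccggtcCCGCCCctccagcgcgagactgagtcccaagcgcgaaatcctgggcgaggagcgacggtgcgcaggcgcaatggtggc
*Ythdf2*: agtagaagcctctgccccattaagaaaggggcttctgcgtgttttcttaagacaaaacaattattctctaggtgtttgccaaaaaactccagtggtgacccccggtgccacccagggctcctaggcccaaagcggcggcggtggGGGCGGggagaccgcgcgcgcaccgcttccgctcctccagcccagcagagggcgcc

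*Ythdf1* held 3 GGGCGG, 1 CCAAT and 1 CACGTG, and *Ythdf2* held 1 GGGCGG and 0 of the other motifs. GGGCGG was present in 42.8%, CCAAT in 29.6% and CACGTG in 5.64% of 11988 upstream stretches of the same length. TATAAA, the TATA box, was found in 0 of these 2 stretches and in 4.65% of all. The stretches end 51 bases before the start, so a TATA box nearer to the start was not searched for. The RefSeq table matched 7 of the 10 members.

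*Ythdf1*, *Ythdf2* and *Igf2bp1* were significantly upregulated in *Mettl3*-CKO retinas, by 1.52-fold, 1.85-fold and 1.66-fold. The call of *Igf2bp1* was less stable, holding in 4 of 8 fits with 1 sample left out, against all 8 for *Ythdf1* and *Ythdf2*. In edgeR's quasi-likelihood test with adjustment over all genes, 3 of the 10 members were called higher at an adjusted p under 0.05, against 6.49% of all tested genes. The test called 0 members lower, against 4.05% of all genes. At an unadjusted p under 0.05 in edgeR, 5 members were higher and 0 lower, against 13.5% and 11.1% of all tested genes. DESeq2 called 3 higher and 0 lower, against 8.18% and 5.62%. The members' median log2 fold change was 0.18, and that of all tested genes was -0.01. The groups did not overlap for 5 members, all of them higher in *Mettl3*-CKO, against 9.77% of all tested genes with groups apart in this direction and 17.4% in either direction.

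**Figure D1:**
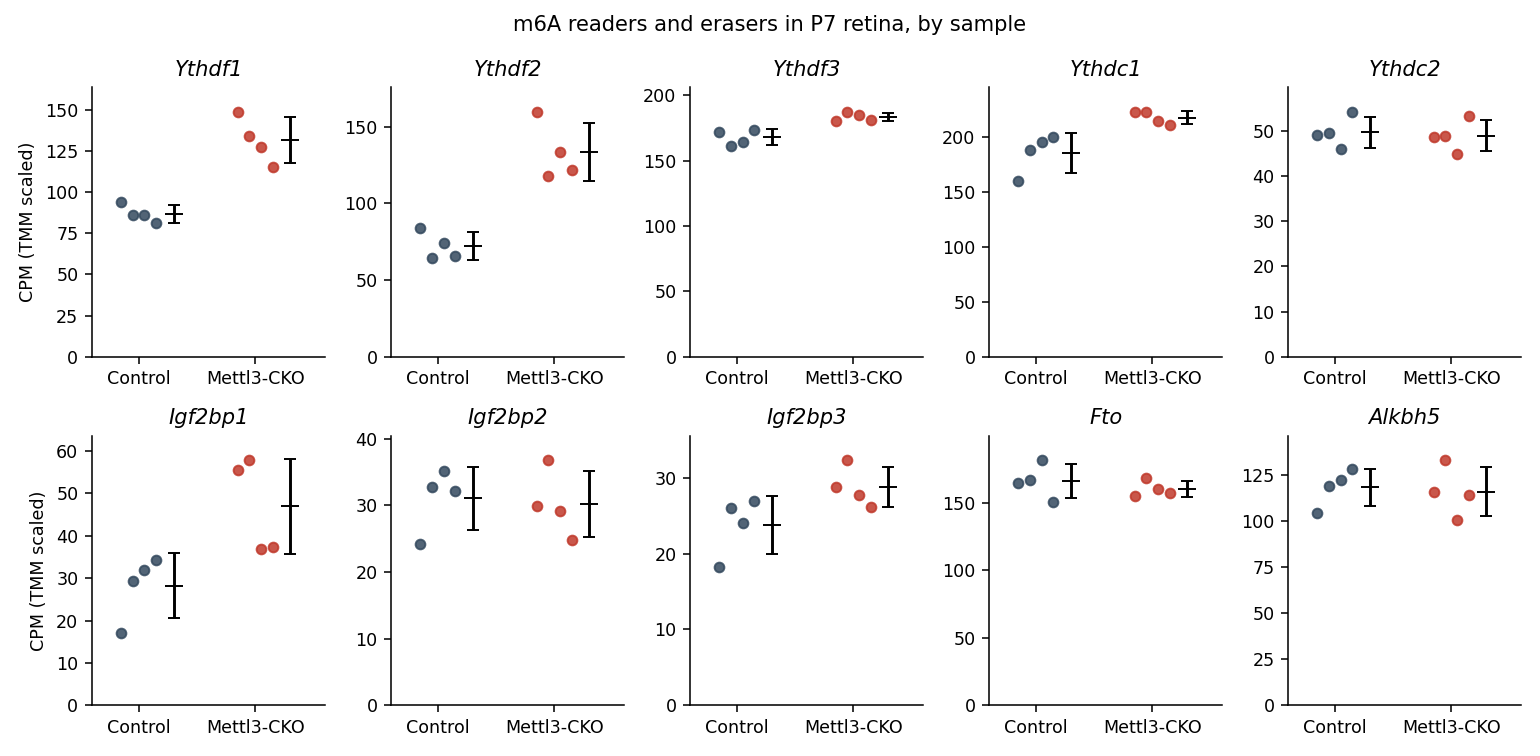
Level of each of the 10 members in TMM-scaled CPM (vertical axes from 0, 1 scale per gene) in 4 Control (dark) and 4 *Mettl3*-CKO (red) samples, drawn left to right as replicates 1 to 4. Bars give the mean and SD, and the groups are clear of each other for *Ythdf1*, *Ythdf2*, *Ythdf3*, *Ythdc1* and *Igf2bp1*.

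*Ythdf2*, whose protein recruits the CCR4-NOT deadenylase to marked mRNA, showed the largest log2 fold change of the 10. Its gene (ENSMUSG00000040025) lies on chromosome 4 of GRCm38 from 132184912 to 132212303. *Ythdf2* stood at 159.7, 117.8, 133.5 and 122.0 CPM in *Mettl3*-CKO samples 1 to 4 and 83.9, 64.5, 74.3 and 65.4 CPM in Controls 1 to 4. The groups were well apart, with the highest value in *Mettl3*-CKO 1 and the highest Control value in Control 1. The means were 133.2 ± 18.8 and 72.0 ± 9.08 CPM (SD, n = 4 each). The log2 fold change was 0.89 ± 0.12 (SE), with a 95% interval of 0.63 to 1.14 and an adjusted p of 0.000929 by edgeR.

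*Ythdf1*, best known for promoting translation of its targets, was also higher in all 4 *Mettl3*-CKO samples. Its gene (ENSMUSG00000038848) lies on chromosome 2 from 180904377 to 180920949. It was at 148.7, 134.0, 127.4 and 115.2 CPM in *Mettl3*-CKO samples 1 to 4 and at 93.8, 85.7, 86.1 and 80.9 CPM in Controls 1 to 4. The lowest *Mettl3*-CKO value stood above the highest Control. The means were 131.3 ± 14.0 and 86.6 ± 5.35 CPM (SD, n = 4 each), a log2 fold change of 0.60 ± 0.09 (SE; edgeR adjusted p = 0.00235). A rise of at least this size that passed the test was seen in 3.13% of all tested genes.

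*Ythdf3*, which encodes the remaining cytoplasmic YTHDF protein, differed little in RNA. It was at 180.7, 187.5, 185.0 and 181.3 CPM in *Mettl3*-CKO samples 1 to 4 and at 172.2, 161.2, 164.2 and 173.9 CPM in Controls 1 to 4. The groups did not overlap, but the log2 fold change of 0.13 ± 0.07 (SE) did not pass the test (edgeR adjusted p = 0.285). Its 95% interval of -0.02 to 0.28 ended below the lower bounds for *Ythdf1* (0.40) and *Ythdf2* (0.63).

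Nuclear *Ythdc1* was at 223.4, 222.8, 215.1 and 210.9 CPM in *Mettl3*-CKO samples 1 to 4 and at 159.9, 188.6, 195.7 and 200.7 CPM in Controls 1 to 4. Every *Mettl3*-CKO value was above every Control, and Control 1 was the lowest. The log2 fold change of 0.23 ± 0.08 (SE) did not pass after adjustment (edgeR adjusted p = 0.110), and without Control 1 it was 0.16. The helicase gene *Ythdc2* was at 48.8, 48.9, 44.8 and 53.4 CPM against 49.2, 49.5, 46.0 and 54.3 CPM in Controls 1 to 4. Its log2 fold change was -0.02, with a 95% interval of -0.21 to 0.17, and its groups overlapped.

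*Igf2bp1*, an oncofetal reader that binds and stabilizes growth-related mRNAs, was the member of its family that passed the test, with the widest interval of the 3 called members. The gene (ENSMUSG00000013415) lies on chromosome 11 from 95957163 to 96005940. It was at 55.6, 57.8, 37.0 and 37.3 CPM in *Mettl3*-CKO samples 1 to 4 and at 17.1, 29.5, 32.0 and 34.3 CPM in Controls 1 to 4. *Mettl3*-CKO 1 and 2 were far above the rest, *Mettl3*-CKO 3 and 4 were just above the highest Control, and Control 1 was lowest. The log2 fold change was 0.73 ± 0.21 (SE; 95% interval 0.29 to 1.18; edgeR adjusted p = 0.0390). The call was lost without *Mettl3*-CKO 1 (log2 fold change 0.64, adjusted p = 0.151), *Mettl3*-CKO 2 (0.62, adjusted p = 0.111), Control 2 (0.76, adjusted p = 0.0866) or Control 3 (0.80, adjusted p = 0.0595), by the same edgeR test.

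The other IGF2BP genes did not pass. *Igf2bp2* was at 29.9, 36.8, 29.2 and 24.8 CPM in *Mettl3*-CKO samples 1 to 4 and at 24.2, 32.8, 35.1 and 32.1 CPM in Controls 1 to 4, with overlapping groups and a log2 fold change of -0.04 (95% interval -0.34 to 0.25). *Igf2bp3* was at 28.8, 32.3, 27.8 and 26.1 CPM against 18.2, 26.0, 24.0 and 26.9 CPM. Of its 4 *Mettl3*-CKO values, 3 were above all Controls, and the log2 fold change was 0.27 ± 0.12 (SE; edgeR adjusted p = 0.197). *Igf2bp3* overlaps *Malsu1* on the opposite strand by 1529 bases, and the counts of *Malsu1* came to 76.2% of its own, with a *Malsu1* log2 fold change of 0.05. Whether counting used strand was not stated, and reads in the shared bases cannot be assigned with certainty.

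The erasers did not pass in either direction. *Fto*, the first m6A demethylase described, was at 155.2, 168.4, 160.4 and 157.5 CPM in *Mettl3*-CKO samples 1 to 4 and at 164.5, 166.7, 181.4 and 150.5 CPM in Controls 1 to 4. The 4 *Mettl3*-CKO values all lay within the Control range, with a log2 fold change of -0.05 (95% interval -0.22 to 0.12). *Alkbh5*, a nuclear demethylase, was at 115.4, 132.7, 100.6 and 114.1 CPM in *Mettl3*-CKO samples and at 104.0, 118.8, 122.0 and 127.8 CPM in Controls. Its groups overlapped as well, with a log2 fold change of -0.03 (95% interval -0.25 to 0.19). For *Fto* the interval covers changes from 0.858-fold to 1.09-fold, and for *Alkbh5* from 0.843-fold to 1.14-fold.

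**Figure D2:**
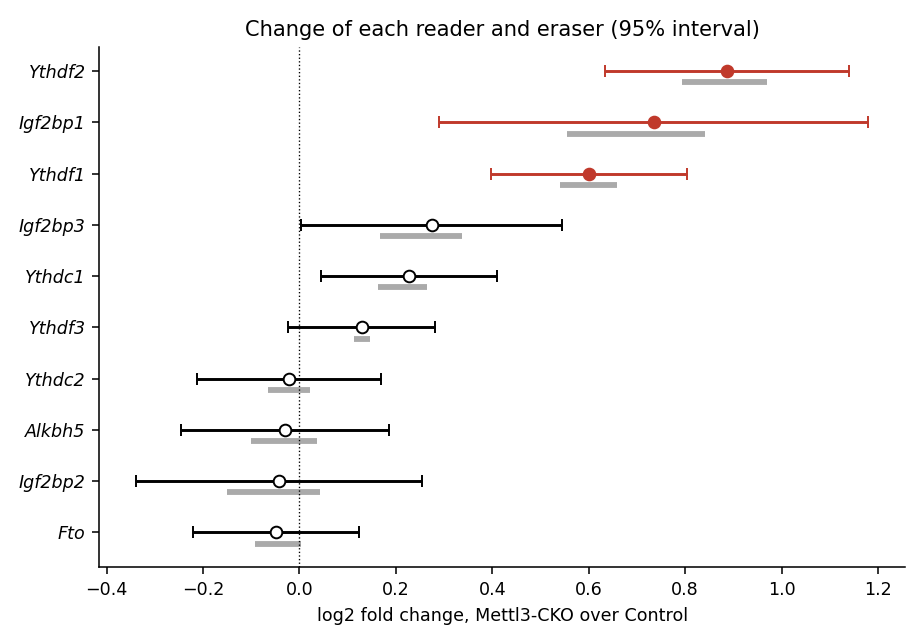
The log2 fold change of each member, *Mettl3*-CKO over Control, on the horizontal axis, with its 95% interval from edgeR (red filled, adjusted p under 0.05; open, not called). Grey bars span the values when each of the 8 samples was left out in turn, and those of *Ythdf2* (0.79 to 0.97) and *Ythdf1* (0.54 to 0.66) stay clear of the 95% intervals of *Ythdc2*, *Alkbh5*, *Igf2bp2* and *Fto*.

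Levels between genes were compared per gene length. In Controls, *Ythdf3* was the most abundant member at 31.1 ± 1.06 FPKM, followed by *Ythdf1* at 26.0 ± 1.16, *Alkbh5* at 19.6 ± 2.001, *Ythdf2* at 15.6 ± 1.68, *Ythdc1* at 13.6 ± 1.54 and *Fto* at 12.7 ± 0.970 FPKM (SD, n = 4 each). *Ythdc2* stood at 5.57 ± 0.426, *Igf2bp2* at 4.18 ± 0.696, *Igf2bp1* at 2.91 ± 0.826 and *Igf2bp3* at 2.91 ± 0.519 FPKM (SD, n = 4 each). The Control values of *Alkbh5* and *Ythdf2*, of *Ythdf2* and *Ythdc1*, of *Ythdc1* and *Fto*, and of neighbouring IGF2BP genes overlapped, so these neighbours were not told apart. *Ythdf3* was above 90.8% of the tested genes in mean Control FPKM, and *Igf2bp3* above 38.7%. In *Mettl3*-CKO retinas *Ythdf1* had the highest mean of the 10, at 39.7 FPKM, before *Ythdf3* at 34.3 and *Ythdf2* at 29.2 FPKM.

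**Figure D3:**
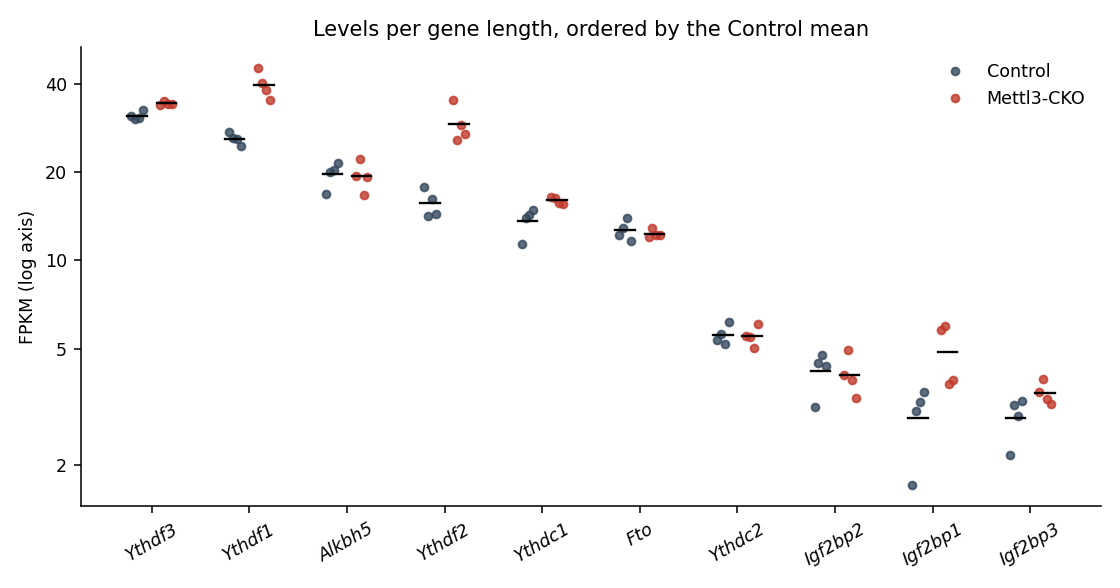
Level per gene length in FPKM (log axis) for the 10 members, ordered by the Control mean, with 4 Control (dark) and 4 *Mettl3*-CKO (red) samples as points and the group mean as a line. *Ythdf1* and *Ythdf2* shift upward from Control means of 26.0 and 15.6 to 39.7 and 29.2 FPKM, and the IGF2BP genes lie lowest.

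The summed FPKM of the YTHDF genes was 103 ± 7.78 in *Mettl3*-CKO and 72.7 ± 2.50 in Control (SD, n = 4 each), with ranges of 96.1 to 114 and 70.5 to 76.2 that did not overlap. *Ythdf3* supplied a smaller and *Ythdf2* a larger part of this sum in *Mettl3*-CKO, with no overlap between groups. *Ythdf3* supplied 33.4% of it in *Mettl3*-CKO and 42.8% in Control, *Ythdf2* 28.2% and 21.5%, and *Ythdf1* 38.4% and 35.7%. Among IGF2BP genes, *Igf2bp1* supplied 38.6% in *Mettl3*-CKO and 28.6% in Control, and *Igf2bp2* 32.8% and 42.1%. *Fto* supplied 39.0% and 39.2% of the eraser sum, which was 31.7 ± 2.53 and 32.3 ± 2.26 FPKM (SD, n = 4 each).

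**Figure D4:**
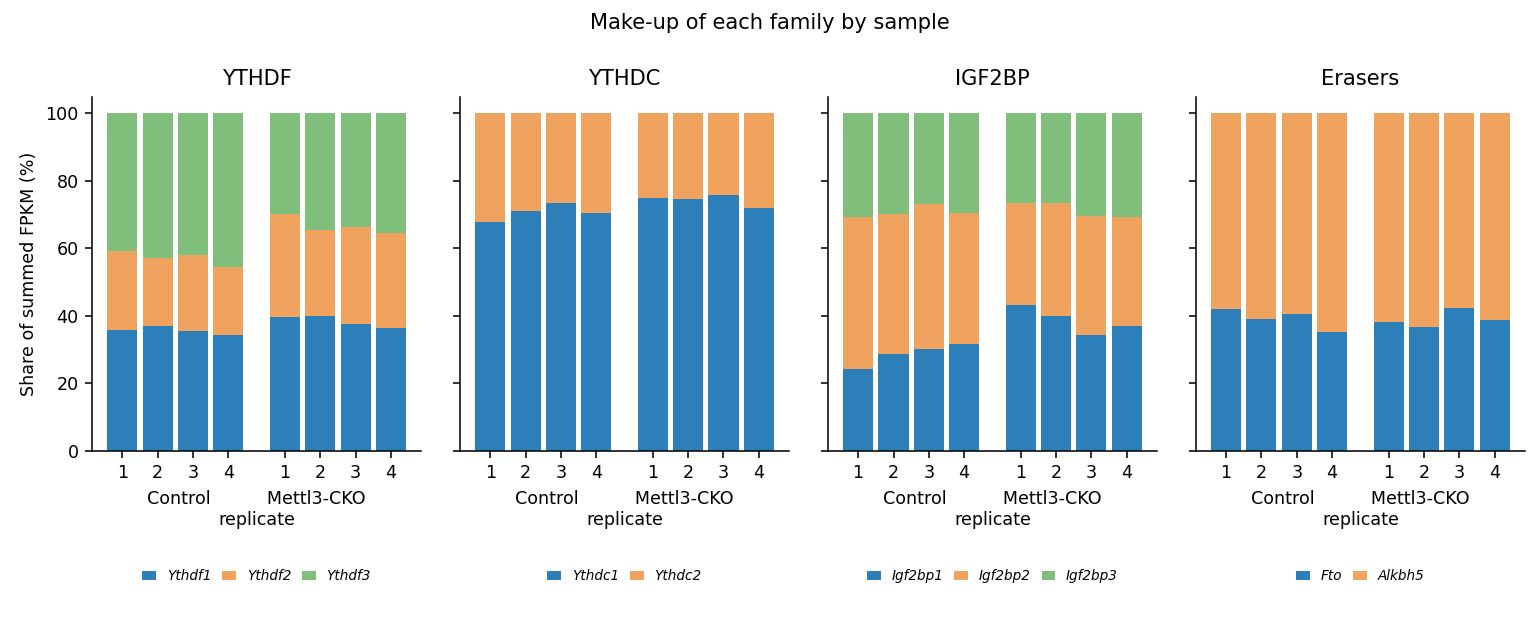
Share in percent (vertical axis) of each family's summed FPKM held by each gene, in Controls 1 to 4 (left bars) and *Mettl3*-CKO 1 to 4 (right bars). *Ythdf3* holds 40.8% to 45.6% of the YTHDF sum in Controls and 29.7% to 35.5% in *Mettl3*-CKO.

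Whether paralogs moved unequally was tested on 8 log2 ratios of counts within a sample, which do not depend on library scaling. The *Ythdf3*/*Ythdf2* log2 ratio was 0.18, 0.67, 0.47 and 0.57 in *Mettl3*-CKO samples 1 to 4 and 1.04, 1.32, 1.14 and 1.41 in Controls 1 to 4. All *Mettl3*-CKO ratios were below all Control ratios, a mean difference of -0.76 (two-sided exact permutation test, p = 0.0286, adjusted p = 0.0571). The *Igf2bp2*/*Igf2bp1* log2 ratio was -0.90, -0.65, -0.34 and -0.59 in *Mettl3*-CKO samples 1 to 4 and 0.50, 0.15, 0.14 and -0.09 in Controls 1 to 4. Here too the groups did not overlap, with a mean difference of -0.79 (exact permutation test, p = 0.0286, adjusted p = 0.0571). The *Ythdf3*/*Ythdf1* difference of -0.47 and the *Igf2bp3*/*Igf2bp2* difference of 0.33 had the same exact permutation p. Since 0.0286 is the smallest p that 4 samples against 4 allow, and 4 of the 8 ratios reached it, none passed after adjustment. The differences for *Ythdf2*/*Ythdf1* (0.29), *Ythdc2*/*Ythdc1* (-0.26) and *Igf2bp3*/*Igf2bp1* (-0.47) each had overlapping groups (exact permutation p = 0.0571, adjusted p = 0.0653). The *Fto*/*Alkbh5* ratio differed by -0.01 (exact permutation test, p = 0.886).

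In a bulk sample, fewer cells of a type and less RNA per cell cannot be told apart. Marker lists of proliferating progenitors and of rods moved with the groups. The counts of markers below stand beside 6.49% of all tested genes called higher and 4.05% called lower by edgeR. These shares were 13.5% and 11.1% at an unadjusted p under 0.05 in edgeR, and 8.18% and 5.62% in DESeq2. The 10 progenitor markers, such as *Mki67*, summed to 2667, 2589, 2462 and 1988 CPM in *Mettl3*-CKO samples 1 to 4 and to 1526, 1889, 1654 and 1650 CPM in Controls 1 to 4. Of the 10, 4 were called higher and 0 lower (8 and 0 at an unadjusted p under 0.05 in edgeR, 6 and 0 in DESeq2). *Mki67* alone was at 1092, 927, 873 and 728 CPM in *Mettl3*-CKO and at 405, 509, 438 and 484 CPM in Controls. Its log2 fold change of 0.98 was the largest of the 10, and without *Mki67* the sums of the groups overlapped. Of the 10 rod markers, 0 were called higher and 6 lower (0 and 6 at an unadjusted p under 0.05 in edgeR, 0 and 6 in DESeq2), with sums of 2392, 2167, 2941 and 3611 CPM in *Mettl3*-CKO and 5368, 3929, 3542 and 4092 CPM in Controls. Some markers of cells around or beside the neurons moved as well. Of 9 tested Müller glia markers, 1 was called higher and 1 lower, with overlapping sums of 2113 to 2263 CPM in *Mettl3*-CKO and 2028 to 2534 CPM in Control. Of 8 microglia markers, 0 were called in either direction, and their sums of 65.0 to 94.8 and 37.5 to 121 CPM overlapped. Of 7 tested retinal pigment epithelium markers, 1 was called higher and 2 lower, with overlapping sums. Called lower were 7 of 9 tested endothelial markers (median log2 fold change -1.31), 2 of 4 pericyte markers with 1 called higher, 2 of 5 astrocyte markers and 2 of 3 erythrocyte markers. Summed astrocyte markers were at 54.7 to 83.7 CPM in *Mettl3*-CKO and 95.1 to 215 CPM in Control. Pericyte sums were at 14.9 to 17.7 and 20.2 to 67.9 CPM, and erythrocyte sums at 4.29 to 7.18 and 13.9 to 26.3 CPM. These sums did not overlap between groups. Control 1 had the highest astrocyte and pericyte sums, and the other Controls were at 95.1 to 119 CPM and at 20.2 to 31.1 CPM. The endothelial sums of 542 to 640 and 563 to 659 CPM overlapped. *Kdr* alone held most of them, at 524 to 616 CPM in *Mettl3*-CKO and 481 to 624 CPM in Control (log2 fold change 0.02). The other endothelial markers were low, with Control means of 10.4 CPM or less. Groups did not overlap for 6 of the 9 tested endothelial markers, all lower, against 1365 of 17998 tested genes in this direction. Of 7 bipolar markers, 2 were called higher and 1 lower, and their sums of 481 to 583 and 390 to 448 CPM did not overlap. *Mettl3*-CKO 1 and 2, highest in *Igf2bp1*, had the highest progenitor and the lowest rod sums, and Control 1, lowest in *Igf2bp1*, had the reverse. Without *Mki67*, the progenitor sum of *Mettl3*-CKO 1 fell below that of *Mettl3*-CKO 3. The part of cell make-up in the members' differences was not tested. Without Controls 1 and 4 the log2 fold changes were 0.61 for *Ythdf1*, 0.94 for *Ythdf2* and 0.61 for *Igf2bp1*, with adjusted p of 0.00296, 0.000612 and 0.0404 by edgeR. That fit only left samples out and made no adjustment for cell make-up.

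Other genes of the pathway were read from lists. Of 8 writer-complex genes, 4 rose and 0 were called lower (4 and 1 at an unadjusted p under 0.05 in edgeR, 4 and 1 in DESeq2, the 1 being *Mettl3*), with a median log2 fold change of 0.31. The 4 are 50% of the list, beside 6.49% of all tested genes, and the count was 2 without *Mettl3*-CKO 1, *Mettl3*-CKO 2 or Control 2. *Rbm15*, which guides the writer to its targets, rose by a log2 fold change of 1.18 ± 0.17 (SE), from 20.5, 32.0, 37.4 and 38.2 CPM in Controls to 89.0, 72.8, 64.7 and 63.6 CPM in *Mettl3*-CKO. Its paralog *Rbm15b* rose by 0.32 ± 0.08, the scaffold genes *Wtap* by 0.47 ± 0.09 and *Virma* by 0.30 ± 0.08 (log2 fold change ± SE). Their edgeR adjusted p were 0.00171, 0.0284, 0.00566 and 0.0366 in the order *Rbm15*, *Rbm15b*, *Wtap* and *Virma*. *Mettl14*, the partner of METTL3, had a log2 fold change of -0.14 (adjusted p = 0.503).

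Of 14 other RNA-binding proteins tied to m6A, 1 rose (*G3bp1*, a stress granule protein, log2 fold change 0.29, edgeR adjusted p = 0.0335) and 1 fell (*Fxr2*, of the fragile X family, -0.28, adjusted p = 0.0260), with a median of 0.01. Each is 7.14% of the list, beside 6.49% of all tested genes called higher and 4.05% called lower. Neither gene was called with no filter on low counts or without *Mettl3*-CKO 1, *Mettl3*-CKO 3, Control 2 or Control 3 (0 higher and 0 lower in each), *G3bp1* was also lost without Control 4 or without Controls 1 and 4, and *Fxr2* without *Mettl3*-CKO 4. Of 10 partners of the readers, such as *Cnot1* of the deadenylase and the exonuclease gene *Xrn1*, 0 were called in either direction by edgeR or DESeq2 and 0 had an unadjusted p under 0.05. The median was 0.00. Of 7 other AlkB dioxygenases, 0 were called by either tool and 1 had an unadjusted edgeR p under 0.05 (*Alkbh8*, a tRNA modifier, named after its value was seen, 0.21). The median was -0.01. Of 5 let-7 regulated oncofetal genes, the class to which *Igf2bp1* belongs, 0 were called by either tool and 2 had an unadjusted edgeR p under 0.05 (*Trim71*, 0.50, and *Lin28b*, 0.42, named after their values were seen), with a median of -0.21. At an unadjusted edgeR p under 0.05, 13.5% of all tested genes were higher and 11.1% lower, and DESeq2 called 8.18% and 5.62%. Given these shares over all genes, 0 called genes in lists this short do not set them apart.

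**Figure D5:**
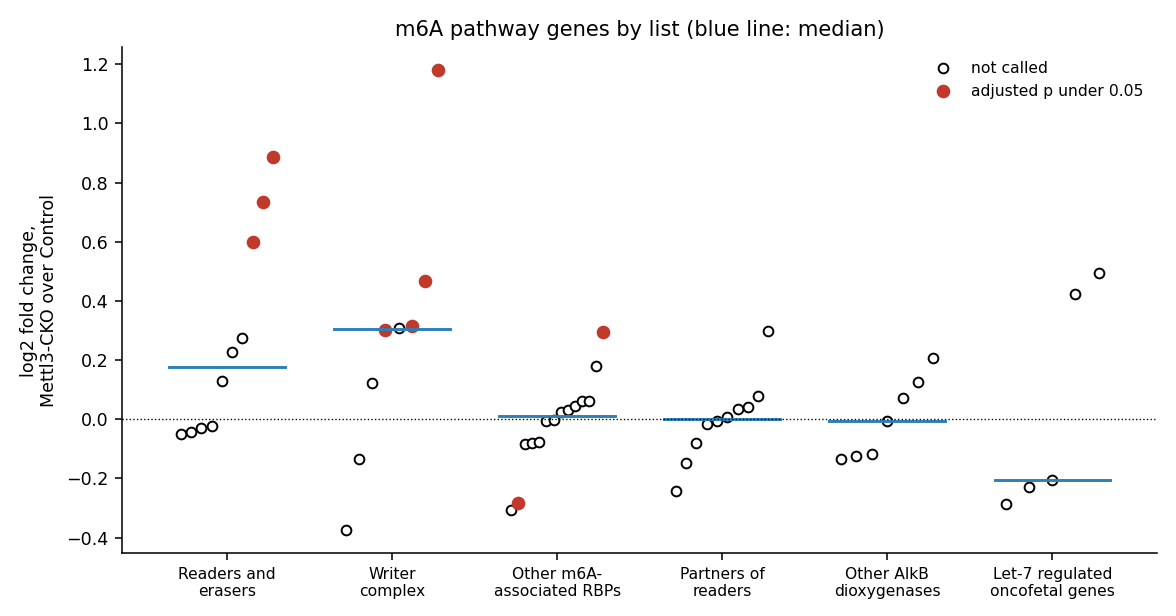
The log2 fold change, *Mettl3*-CKO over Control (vertical axis), of each tested gene in 6 lists, with called genes filled in red and the list's median as a blue line. Called rises lie in the readers and erasers (3), the writer complex (4) and the other m6A-associated RNA-binding proteins (1).

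By Pearson's r of log2 CPM over the 8 samples, the genes outside the lists most like *Ythdf2* were *Ccdc71* (r = 0.996), *Socs6* (r = 0.994) and *Champ1* (r = 0.993), out of 11254 candidates. These r share the group difference and the libraries and are a description. *Ccdc71* was at 74.0, 58.9, 66.7 and 61.6 CPM in *Mettl3*-CKO and at 46.0, 38.9, 45.2 and 39.0 CPM in Controls, the same order of samples as *Ythdf2* within *Mettl3*-CKO. *Socs6*, a suppressor of cytokine signalling, had a log2 fold change of 0.72 and *Champ1* of 0.52.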

How the data were processed

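Whole-retina samples, 4 *Mettl3*-CKO and 4 Control, were compared by bulk RNA-seq. The authors mapped reads with HISAT2 to GRCm38 and counted them per gene with featureCounts, and the deposited values are raw counts per gene, read as such from whole numbers with unequal totals. The annotation release and strand setting are not given in the sources used here. Samples were matched to columns by their labels. Genes were filtered (filterByExpr), TMM-scaled and compared in edgeR 4.0.16 (R 4.3.3) by glmQLFTest, with Benjamini-Hochberg adjustment over 17998 genes at 0.05; the SE is the absolute log2 fold change divided by the square root of F. FPKM used total counts and the deposited gene lengths. Ratios had a prior count of 0.5 and an exact permutation test (scipy 1.17.1), adjusted over 8 ratios. DESeq2 1.42.0, other scaling, no filter, a replicate block and samples left out were alternatives. The test was checked on counts simulated with changes larger than those of the members. That check does not show how often changes of the members' size are missed. The lowest chi-square between samples was 5.45 per gene, so none was counted as a duplicate. The biological coefficient of variation was 15.0%; at these totals counting error is small for all members.

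Named genes are the 10 members, *Mettl3*, up to 5 called genes from each pathway list, and the 3 genes most like the called member with the lowest p. *Mettl14*, *Cnot1*, *Xrn1*, *Mki67* and the overlapping genes *Tox4* and *Malsu1* were added for context. *Alkbh8*, *Trim71*, *Lin28b* and *Kdr*, which were not called, were added after their values were seen. The members and lists were chosen with earlier results of these data known, and the sequence motifs and windows after the values had been seen.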

Additional observations from a re-analysis of the deposited data

Results flagged for a closer look

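Of 38 sets of 4 values checked for a sample far from the others, 1 stood out, and chance gives about 1.9. In the *Mettl3*-CKO group the *Ythdf2*/*Ythdf1* log2 ratio was -0.19 (-0.186) in replicate 2, below 0.067 to 0.103 in the other replicates. In this sample *Ythdf2* was at 117.8 CPM, its lowest *Mettl3*-CKO value, and *Ythdf1* at 134.0 CPM. The cause was not tested.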

How the results depend on the processing

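*Ythdf1* and *Ythdf2* were called higher in all 14 alternatives, with log2 fold changes of 0.54 to 0.66 and 0.79 to 0.97. *Igf2bp1* was called in 9 of 14 (0.56 to 0.84); beside the samples named above, it lost its call with the replicate number as a block (0.74, edgeR adjusted p = 0.0735), where 2 members, 1198 genes higher and 660 lower were called. Same-numbered samples had correlations of -0.11, 0.22, -0.11 and 0.25, and other pairs across the groups ranged from -0.23 to 0.26. With so few pairs, these values cannot decide whether the numbers pair the samples. The other 7 members were called in 0 of 14. Leaving out 1 sample at a time gave 2 to 3 members higher and 0 lower, and over all genes 509 to 1882 higher (fewest without *Mettl3*-CKO 1, most without Control 1; 702 without Control 2) and 185 to 1289 lower. Signs of small values turned. *Ythdc2* was 0.034 without Controls 1 and 4, and with single samples left out it ranged from -0.065 to 0.023 (positive without *Mettl3*-CKO 3 or, at 0.021, without Control 4), *Alkbh5* from -0.10 to 0.035 (positive without *Mettl3*-CKO 3 or, at 0.0092, without Control 4), *Igf2bp2* from -0.15 to 0.042 (positive without *Mettl3*-CKO 4 or, at 0.026, without Control 3) and *Fto* from -0.092 to 0.0026 (positive without Control 3). The *Fto*/*Alkbh5* ratio difference was 0.0038, 0.032, 0.045 and 0.015 without *Mettl3*-CKO 1, *Mettl3*-CKO 2, Control 1 and Control 3. *Mettl3* was called lower by DESeq2 (-0.38, adjusted p = 0.0320) and without *Mettl3*-CKO 2 (-0.49, edgeR adjusted p = 0.0185). Writer-complex rises were 3 with no filter, with the block and without Controls 1 and 4, and 2 to 4 with single samples left out. Scaling to the summed per-length level gave larger values than FPKM (*Ythdf3*, 116 against 31.1). The causes were not tested.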
